A study of Arabidopsis thaliana with 6 samples.

Results

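The genes described here are 10 heat shock and protein quality control genes of Arabidopsis, AT5G48570 (ROF2), AT1G54050, HSP15.7, HSC70-2, HSC70-3, AT2G20560, AT2G19310, AT2G29500, AT1G66080 and AT1G26800. They were chosen by name from 13333 genes that have a single-gene probe set, after their signals in the same comparisons were known. Their differences between karyotypes are therefore given as a description without a test. Another pair of probe sets of the heat families, 260248_at and 262911_s_at, is described beside them. The array annotation used here gives no gene for 260248_at and assigns 262911_s_at to both AT1G59860 and AT1G07400, a pair of small heat shock genes. All 10 members passed the filter on low signals.

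Rosette leaves of 26-day-old plants of the Col-0 background were profiled on 6 ATH1 arrays, with 2 arrays for each of 3 karyotypes. Trisomy 2 (AAA) carries an additional whole chromosome 2 (Chr.2), so that all genes of Chr.2 are present in 3 copies. In tertiary trisomy 2 (AAa), which was selected by the aur2-1 T-DNA allele, the additional chromosome joins Chr.2 up to AUR2 (AT2G25880) to the part of Chr.3 before AT3G20040, and genes of both parts are present in 3 copies. The wild type (WT) was diploid Col-0. Both trisomics derive from 1 T-DNA line, have round leaves and were sorted by leaf shape and genotype. Plants grew with 16 h of light and 8 h of dark at 22 °C, and no heat treatment is described. Each RNA sample was pooled from 21 to 35 plants.

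Heat shock proteins are molecular chaperones that bind unfolded proteins. Small heat shock proteins hold unfolded proteins in a soluble state, and HSP70 proteins refold them with the help of J proteins, which deliver the client, and of nucleotide exchange factors. Immunophilins and co-chaperones work with HSP90, and ubiquitin ligases mark proteins that cannot be refolded for degradation by the 26S proteasome. Many of these genes are known for strong induction by heat shock factors when leaves become warm, whereas constitutive HSP70 genes are expressed at a high level in unstressed leaves.

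The trimmed mean signal was 500 on each array, and the median signal lay between 155 and 171. AUR2 gave 978 and 954 in AAa, against 63.5 to 70.5 on the other 4 arrays. Of 19 marker genes of leaf and other tissues 3 were measured. The leaf gene RCA gave 39283 and 48047 in AAA and 28104 and 32034 in AAa, against 46456 and 42830.0 in WT, so that AAa was lowest. The root gene PYK10 gave 9.42 and 23.8 in AAA and 46.4 and 28.5 in AAa, against 2.87 and 3.14 in WT, and AGL42 did not exceed 37.1. The ubiquitin control, whose 3′ signal is divided by its 5′ signal as a measure of RNA integrity, had a mean log2 ratio of 1.62 in AAA and 1.24 in AAa, against 1.75 in WT. For actin it was 3.52 in AAA and 3.19 in AAa, against 3.71 in WT, and for GAPDH 0.29 in AAA and 0.27 in AAa, against 0.06 in WT. The part of these control and marker differences in the results was not tested. No source used here says whether the arrays of a karyotype came from separate plantings, so p-values measure only the spread between these arrays.

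All 10 members were lower in AAA than in WT, with both AAA arrays below both WT arrays. Among all 13648 expressed probe sets 21.3% had this order. The median log2 ratio of the members was -1.18, against 0.04 for all probe sets tested, and single members ranged between -2.86 and -0.38. In AAa the picture was mixed: 7 members lay below WT on both arrays (background 25.4%), HSC70-2 and HSC70-3 lay above WT on both arrays (background 34.9%), and HSP15.7 overlapped with WT. The median of the members in AAa was -0.73, against 0.04 for all probe sets. For 8 members the mean of AAa lay between those of AAA and WT. A total of 6 members were at least 2-fold lower in AAA and 3 in AAa. For this order of means and for the 2-fold limit, the shares among all probe sets were not determined. AAA and AAa were compared with the same WT arrays. In leaf RNA, fewer cells that express a gene and less transcript per cell cannot be told apart.

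**Figure D1:**
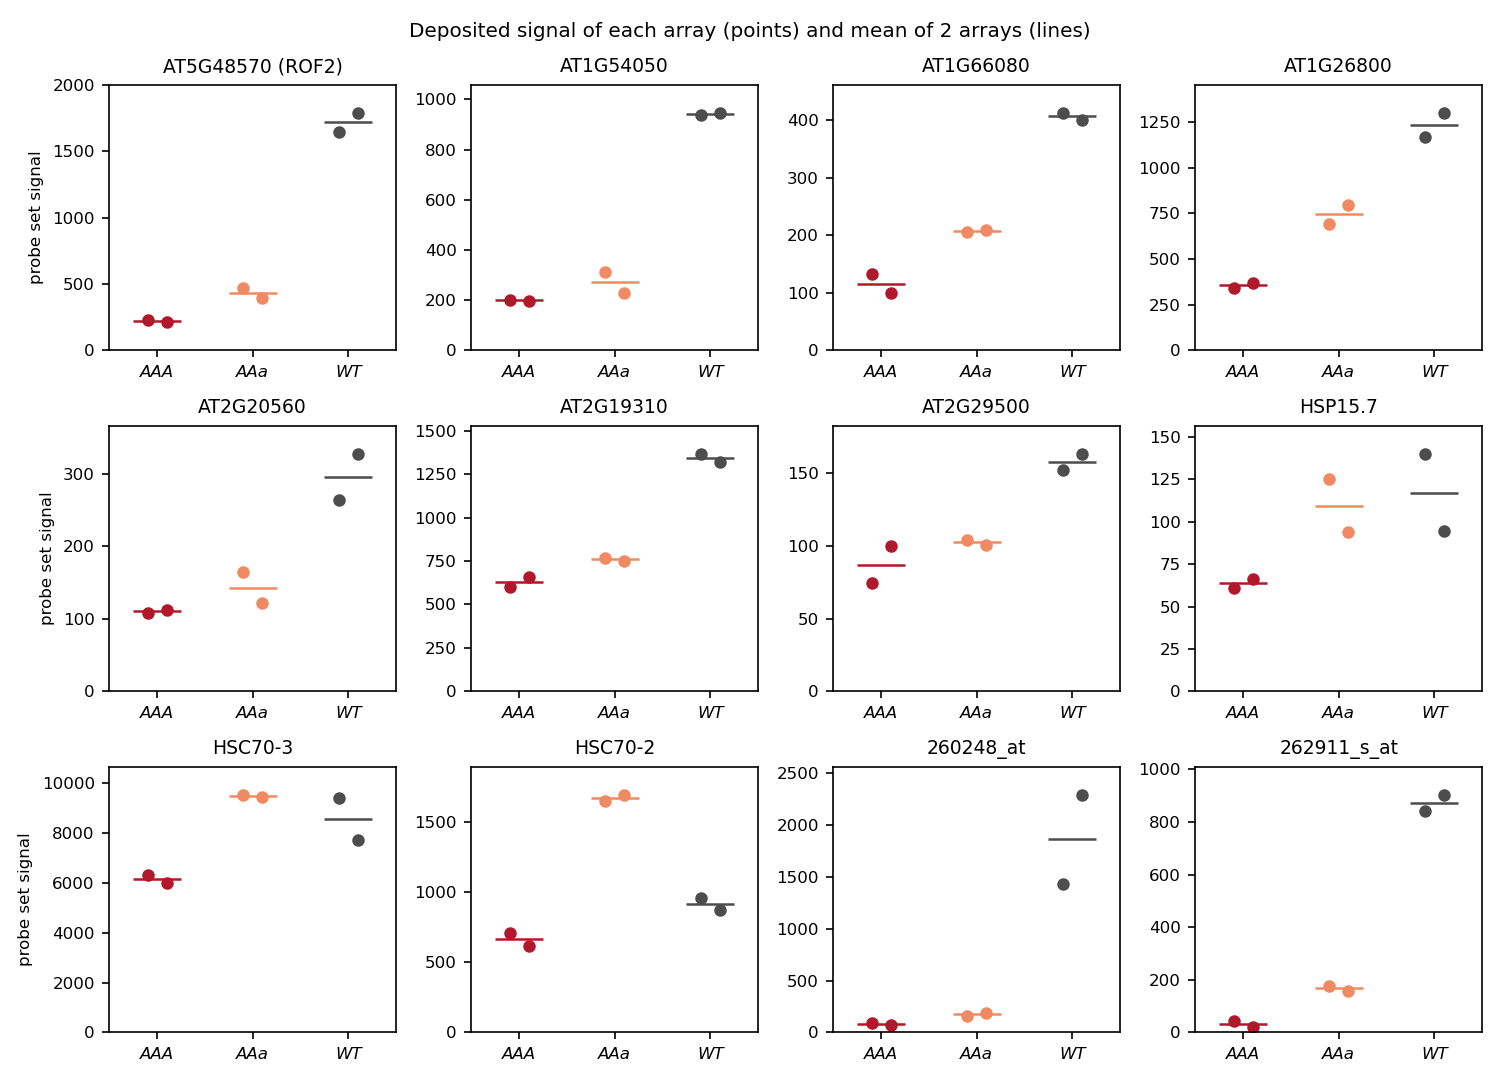
Deposited signal (linear, from 0) of the 10 members and of 260248_at and 262911_s_at in AAA, AAa and WT; each point is 1 array and each line the mean of 2 arrays. The AAA points lie below the WT points in every panel, whereas HSC70-2 reached 1651 and 1692.5 in AAa, above its WT signals of 955 and 874.

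The largest difference among the members was that of the immunophilin AT5G48570. ROF2 is a heat-induced peptidyl-prolyl isomerase of the FKBP family that acts on the HSFA2 response through its relative ROF1. Its signals were 231 and 215 in AAA and 468 and 391 in AAa, against 1645 and 1787 in WT. The groups did not overlap and stood in the order AAA, AAa, WT. ROF2 was 7.26-fold lower in AAA (log2 -2.86, SE 0.14) and 3.88-fold lower in AAa (log2 -1.96, SE 0.14) than in WT. Its level in AAa exceeded that in AAA by 1.87-fold.

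The 4 members of the small heat shock family behaved unequally. AT1G54050 gave 200.02 and 198 in AAA and 314 and 230.2 in AAa, against 939 and 945.5 in WT. The arrays of AAA and of WT nearly coincided, and the AAa arrays were farther apart. AT1G54050 was 4.47-fold lower in AAA (log2 -2.16, SE 0.16) and 3.39-fold lower in AAa (log2 -1.76, SE 0.16). AT2G19310 gave 598 and 656 in AAA and 769 and 749 in AAa, against 1365 and 1322 in WT, with no overlap between karyotypes. It was 2.03-fold lower in AAA (log2 -1.02, SE 0.12) and 1.71-fold lower in AAa (log2 -0.78, SE 0.12).

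AT2G29500, also of the small heat shock family, was dimmer. Its signals were 74.9 and 99.7 in AAA and 104 and 101 in AAa, against 153 and 163 in WT. Both trisomics lay below WT, and after centring 1 AAA array was level with the AAa arrays, so that AAa and AAA overlapped. The log2 ratio to WT was -0.79 in AAA and -0.58 in AAa (SE 0.24 each). The lower AAA array lies below the limit for expression (77.8), and with 32 added to every signal the AAA ratio was -0.60. HSP15.7, a small heat shock protein of peroxisomes, gave 61.1 and 66.2 in AAA and 125 and 93.7 in AAa, against 139.9 and 94.5 in WT. The AAA arrays were the lowest, and the AAa arrays overlapped with WT. The log2 ratio was -0.77 in AAA and -0.04 in AAa (SE 0.28 each), and the sign in AAa depended on single arrays (-0.32 to 0.25 when 1 array was left out). The AAA signals of HSP15.7 lie below 77.8, the limit for expression used here, so the size of its ratio is less certain than its direction.

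The J protein AT2G20560, a partner that stimulates HSP70, gave 108 and 112 in AAA and 165 and 121 in AAa, against 264 and 327 in WT. Both trisomics lay below WT and the AAA arrays were the lowest. AT2G20560 was 2.52-fold lower in AAA (log2 -1.33, SE 0.21) and 2.01-fold lower in AAa (log2 -1.01, SE 0.21). AT1G66080 encodes a Hikeshi-like protein. In human cells Hikeshi carries HSP70 into the nucleus during heat shock. Its signals were 132 and 100.1 in AAA and 206 and 209 in AAa, against 412 and 400.3 in WT. The karyotypes did not overlap, and AT1G66080 was 3.34-fold lower in AAA (log2 -1.74, SE 0.19) and 1.89-fold lower in AAa (log2 -0.92, SE 0.19).

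AT1G26800 encodes a RING-type ubiquitin ligase. It gave 342 and 370.5 in AAA and 694 and 797 in AAa, against 1167 and 1298.5 in WT. The order AAA, AAa, WT held on each array. AT1G26800 was 3.26-fold lower in AAA (log2 -1.71, SE 0.13) and 1.60-fold lower in AAa (log2 -0.68, SE 0.13). Its level in AAa was 2.04-fold that in AAA.

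The cytosolic HSP70 genes were the members that stood above WT in AAa. HSC70-2 gave 710.5 and 617 in AAA and 1651 and 1692.5 in AAa, against 955 and 874 in WT. AAA lay below WT and AAa above it, with no overlap on either side. HSC70-2 was 1.30-fold lower in AAA (log2 -0.38, SE 0.12) and 1.89-fold higher in AAa (log2 0.92, SE 0.12) than in WT, and AAa exceeded AAA by 2.46-fold. HSC70-3, the brightest member, gave 6301.5 and 5979.9 in AAA and 9532 and 9443 in AAa, against 9419.8 and 7721 in WT. The WT arrays were far apart, and the lower AAa array was only slightly above the higher WT array. HSC70-3 was 1.31-fold lower in AAA (log2 -0.39, SE 0.11) and 1.15-fold higher in AAa (log2 0.20, SE 0.11). Both genes belong to a family of similar coding sequences, and cross-hybridization of their probe sets was not analysed here.

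**Figure D2:**
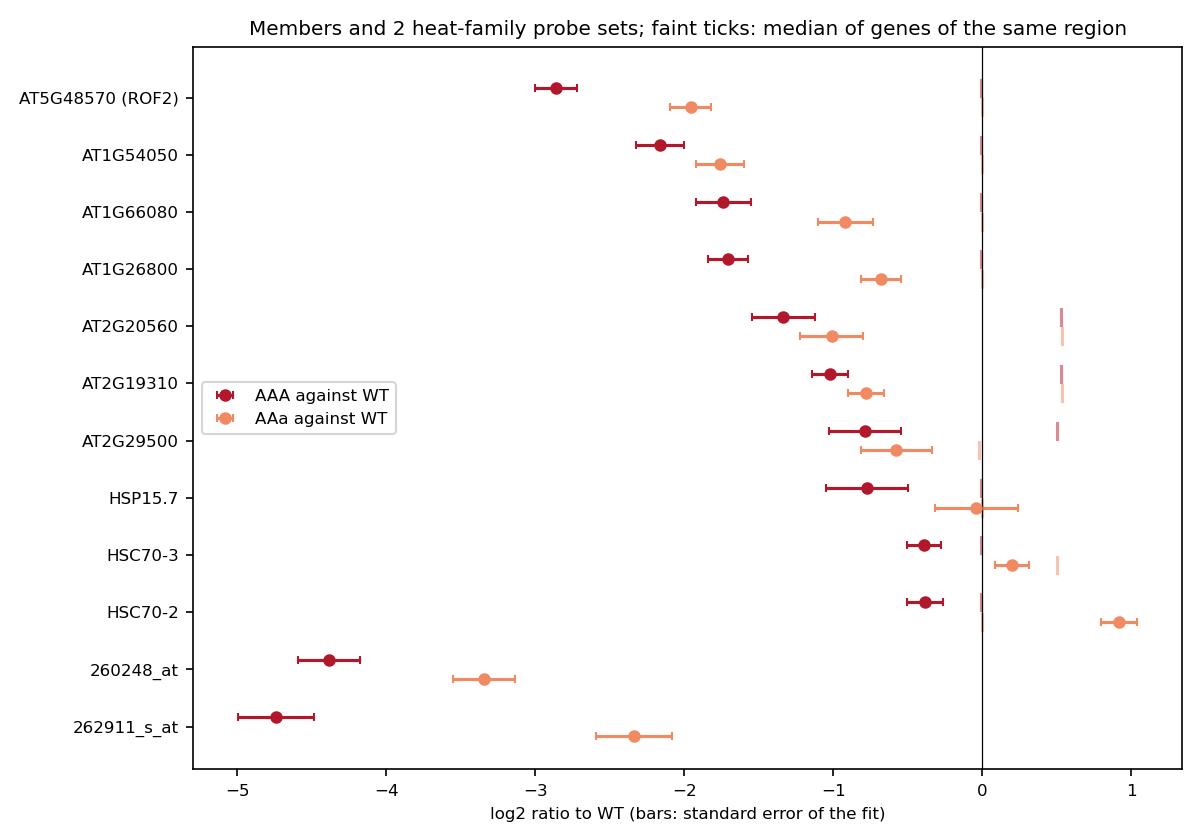
Log2 ratio of AAA and of AAa to WT for the 10 members and the 2 heat-family probe sets (points, with the standard error of the fit as bars); faint ticks give the median log2 ratio of the genes of the same chromosomal region. All AAA ratios lie between -4.74 and -0.38, and among the AAa ratios those of HSC70-3 (0.20) and HSC70-2 (0.92) are above 0.

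Compared with each other, the trisomics were separated by most members. In AAa 9 of the 10 members were higher than in AAA on both arrays (background 30.1%). The median log2 ratio of AAa to AAA was 0.66, against -0.01 for all probe sets tested. The ratio was highest for HSC70-2 (1.30), AT1G26800 (1.03) and ROF2 (0.90), and lowest for AT2G29500 (0.21), AT2G19310 (0.24) and AT2G20560 (0.32). These last 3 are the members located on Chr.2. For 6 members both AAa arrays lay above both AAA arrays and below both WT arrays. These were ROF2, AT1G54050, AT1G66080, AT1G26800, AT2G20560 and AT2G19310. The share of all probe sets with this order was not determined, and the members were chosen with these signals known.

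The members located on Chr.2 were lower than in WT in the karyotypes where they have 3 copies. A total of 6 members have 2 copies in each karyotype, 3 have 3 copies in AAA and 3 have 3 copies in AAa. On Chr.2 up to AUR2, the median log2 ratio over 411 genes was 0.53 for AAA and 0.54 for AAa. AT2G20560 and AT2G19310 lie in this region and have 3 copies in both trisomics. Relative to their region AT2G20560 stood at -1.86 in AAA and -1.55 in AAa, and AT2G19310 at -1.55 in AAA and -1.32 in AAa. AT2G29500 lies on Chr.2 beyond AUR2, with 3 copies in AAA and 2 in AAa, where the region medians were 0.50 and -0.02 (645 genes). Relative to them it stood at -1.29 in AAA and -0.55 in AAa. HSC70-3 lies on Chr.3 before AT3G20040 and has 3 copies in AAa, where the median gene stood at 0.50 (658 genes). Its ratio in AAa was 0.30 below that median, although it was above WT.

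The heat-family probe sets had larger ratios than any member. The probe set 262911_s_at gave 42.7 and 22.2 in AAA and 175 and 159 in AAa, against 841 and 902 in WT. Class I small heat shock proteins, to which both of its genes belong, are generally described as nearly silent in unheated leaves and induced by heat. The WT signals of 841 and 902 did not match that description. They lay well above the limit for expression, although no heat treatment of the plants is described. Whether the WT or the trisomic level is the usual one for unheated leaves was not tested. The karyotypes were clearly apart, and the log2 ratio to WT was -4.74 in AAA and -2.34 in AAa (SE 0.25 each). As the AAA signals lie below the limit for expression, the size in AAA is uncertain, and with 32 added to every signal the log2 ratio there was -3.75. The probe set 260248_at gave 92.9 and 72.4 in AAA and 162 and 184 in AAa, against 1432 and 2287 in WT. The WT arrays differed by more than those of the trisomics, but no trisomic array came near them. Its log2 ratio was -4.38 in AAA and -3.34 in AAa (SE 0.21 each). The lower AAA array lies below the limit for expression, and with 32 added to every signal the AAA ratio was -3.94.

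Beyond the named genes, a list of 148 heat shock and protein quality control genes in 12 subgroups was examined. The list was drawn up with earlier results of these data known. The shares of its genes that passed are therefore not independent support. Apart from the 10 members, 33 of these genes had a single-gene probe set and 24 were expressed and tested. Heat shock factors, HSP90 and chaperonin genes were not analysed here. In AAA 4 of the 24 genes fell (16.7%, against 3.41% of all expressed probe sets and 3.73% of genes with 2 copies in each karyotype) and 1 rose (4.17%, against 12.7% and 4.04%). Their median log2 ratio was -0.17. The count in AAA depended on the processing, with 7 lower and 0 higher with signals as deposited. It was 1 lower when p-values were adjusted over genes with 2 copies in each karyotype. That setting did not test Fes1A and AT3G12050, which fell in AAA but have 3 copies in AAa. In AAa 3 fell (12.5%, against 8.18% and 8.35%) and 4 rose (16.7%, against 15.4% and 7.25%), and the median was 0.09. Of AAa relative to AAA, 1 fell (4.17%, against 13.5% and 8.04%) and 7 rose (29.2%, against 11.5% and 7.43%), with a median of 0.22. Fes1A, AT3G12050 and BZIP28, which are among these 7, have 3 copies in AAa. For the 20 tested list genes with 2 copies in each karyotype, the median was -0.12 in AAA, 0.09 in AAa and 0.11 for AAa relative to AAA. Both shares in AAa against WT were close to those of all expressed probe sets. The p-values below come from limma with Benjamini-Hochberg adjustment over all 13648 probe sets.

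Most of the genes that fell in AAA were co-chaperones. All 7 tested co-chaperones had a negative log2 ratio in AAA, with a median of -0.36, as had 17 of the 24 list genes and 44.1% of all probe sets tested. A total of 3 of the 7 co-chaperones passed the test as lower (42.9%, against 3.41% of all expressed probe sets). Fes1A, a nucleotide exchange factor of HSP70 needed for acquired thermotolerance, gave 293 and 267 in AAA and 741 and 729.6 in AAa, against 766 and 804 in WT. The AAA arrays stood alone and AAa was close to WT. Fes1A fell by 2.65-fold in AAA (log2 -1.41, SE 0.13, adjusted p = 5.67e-06), and in AAa, where it has 3 copies, its log2 ratio was -0.05 (adjusted p = 0.843). AT3G12050, related to the HSP90 activator Aha1 of yeast, gave 938 and 669.5 in AAA and 1525 and 1604 in AAa, against 1536 and 1914.5 in WT. It fell by 2.04-fold in AAA (log2 -1.03, adjusted p = 0.000301) and, with 3 copies, did not pass in AAa (log2 -0.09, adjusted p = 0.737). Fes1A and AT3G12050 both lie on Chr.3 before AT3G20040, where the median gene stood at 0.50 in AAa against WT. Both genes were thus near WT but below the median of their region in AAa.

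SGT1A, an HSP90 partner that stabilizes immune receptors, fell in both trisomics. It gave 1452 and 1651 in AAA and 2359 and 2163 in AAa, against 3051 and 3323 in WT. The karyotypes did not overlap, and the order was that of ROF2. The log2 ratio was -0.96 in AAA (SE 0.11, adjusted p = 5.16e-05) and -0.45 in AAa (SE 0.11, adjusted p = 0.0101). The call in AAa was lost without WT replicate 2 (adjusted p = 0.0715) or AAa replicate 2 (adjusted p = 0.078), and without the intensity trend in the fit (adjusted p = 0.0538).

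Of 12 list genes for quality control in the endoplasmic reticulum (ER) 3 were tested. These were BZIP28 and BZIP60, transcription factors of the unfolded protein response, and ATERDJ3B, a J protein of the ER lumen. All 3 rose in AAa, where 15.4% of all expressed probe sets rose, but the calls of BZIP60 and ATERDJ3B were lost under several alternatives. ATERDJ3B gave 1773 and 1830.0 in AAA and 3055 and 3321 in AAa, against 2354 and 2549 in WT. As with HSC70-2, AAA lay below WT and AAa above it. ATERDJ3B fell by 0.36 on the log2 scale in AAA (adjusted p = 0.0344) and rose by 0.43 in AAa (adjusted p = 0.011). BZIP28 gave 641 and 696 in AAA and 1234.5 and 1521 in AAa, against 908 and 708 in WT. Only AAa differed from WT (log2 0.82, SE 0.15, adjusted p = 0.00107), where BZIP28 has 3 copies and the median gene of its region stood at 0.50, and in AAA the log2 ratio was -0.18 (adjusted p = 0.479).

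BZIP60 gave 1991 and 1741 in AAA and 2005 and 1684 in AAa, against 1428.5 and 1474.5 in WT. It rose in both trisomics, by 0.44 in AAA (adjusted p = 0.0175) and by 0.39 in AAa (adjusted p = 0.0273). With signals as deposited neither call of BZIP60 passed (adjusted p = 0.0568 in AAA and 0.053 in AAa). They were also lost without either WT array, without AAA replicate 1 in AAA (adjusted p = 0.169) and without AAa replicate 1 in AAa (adjusted p = 0.227). For ATERDJ3B the call in AAA was lost without any 1 of the AAA or WT arrays (adjusted p between 0.0528 and 0.175), and that in AAa without WT replicate 1 (adjusted p = 0.0678) or AAa replicate 2 (adjusted p = 0.0984). Without the intensity trend both calls of ATERDJ3B were lost (adjusted p = 0.114 in AAA and 0.0554 in AAa), as was that in AAA with adjustment over genes with 2 copies (adjusted p = 0.0766) or with no filter on dim probe sets (adjusted p = 0.0587).

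The 2 tested small heat shock genes outside the members both fell in AAa (100%, against 8.18% of all expressed probe sets) but differed in sign in AAA. AT4G21870 gave 666 and 646 in AAA and 254 and 214 in AAa, against 571 and 634 in WT. It was lowest in AAa, in contrast to the 10 members, where both AAa values exceeded or overlapped those of AAA. AT4G21870 fell by 2.49-fold in AAa (log2 -1.32, SE 0.14, adjusted p = 2.14e-05) and did not pass in AAA (log2 0.21, adjusted p = 0.385). AT5G54660 gave 222 and 203 in AAA and 188 and 204 in AAa, against 288 and 374 in WT. Both trisomics lay below WT. The log2 ratio was -0.70 in AAa (SE 0.18, adjusted p = 0.0114) and -0.54 in AAA (SE 0.18, adjusted p = 0.0519), where it passed with signals as deposited (adjusted p = 0.0293). The call in AAa was lost without WT replicate 2 (adjusted p = 0.115) or AAa replicate 1 (adjusted p = 0.0929).

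Among 4 genes of the 26S proteasome, the protease that degrades ubiquitinated proteins, only AT5G23540 passed. It encodes a deubiquitinating subunit of the lid and gave 1755 and 1579 in AAA and 1985 and 2336 in AAa, against 1796 and 1626 in WT. AAa stood above the other karyotypes. The log2 ratio was 0.38 in AAa (SE 0.12, adjusted p = 0.0335) and 0.05 in AAA (adjusted p = 0.864), and the call in AAa was lost with signals as deposited (adjusted p = 0.0549). It was lost as well without WT replicate 2 (adjusted p = 0.175) or AAa replicate 2 (adjusted p = 0.273). The 5 J proteins, the 2 further HSP70 genes and the thermotolerance gene HSA32 did not pass in a trisomic against WT (adjusted p of 0.242 and above). HSA32 gave 53.0 and 126.6 in AAA and 92.8 and 89.2 in AAa, against 131 and 104 in WT, so that the AAA arrays were farther apart than those of AAa or WT.

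A further 9 list genes were too dim to be tested, and they did not share a direction. Of these, Hop3 and AT5G51440, named after their values were seen, exceeded the limit for expression in WT only. Hop3 links HSP70 with HSP90 and gave 22.5 and 13.6 in AAA and 30.8 and 17.3 in AAa, against 102 and 116 in WT. AT5G51440, of the small heat shock family, gave 44.9 and 40.2 in AAA and 41.2 and 61.5 in AAa, against 119 and 115.9 in WT. Both were below WT on all trisomic arrays, but their trisomic signals lie under the limit for expression and no fold is given. The J protein AT1G59725, also named after its values were seen, went the other way, with 32.9 and 33.7 in AAA and 49.4 and 57.1 in AAa, against 12.8 and 6.56 in WT, all under the limit. The immunophilin SQN gave 79.5 and 70.3 in AAA and 49.5 and 41.8 in AAa, against 60.9 and 32.05 in WT. SQN lies on Chr.2 up to AUR2 and has 3 copies in both trisomics.

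**Figure D3:**
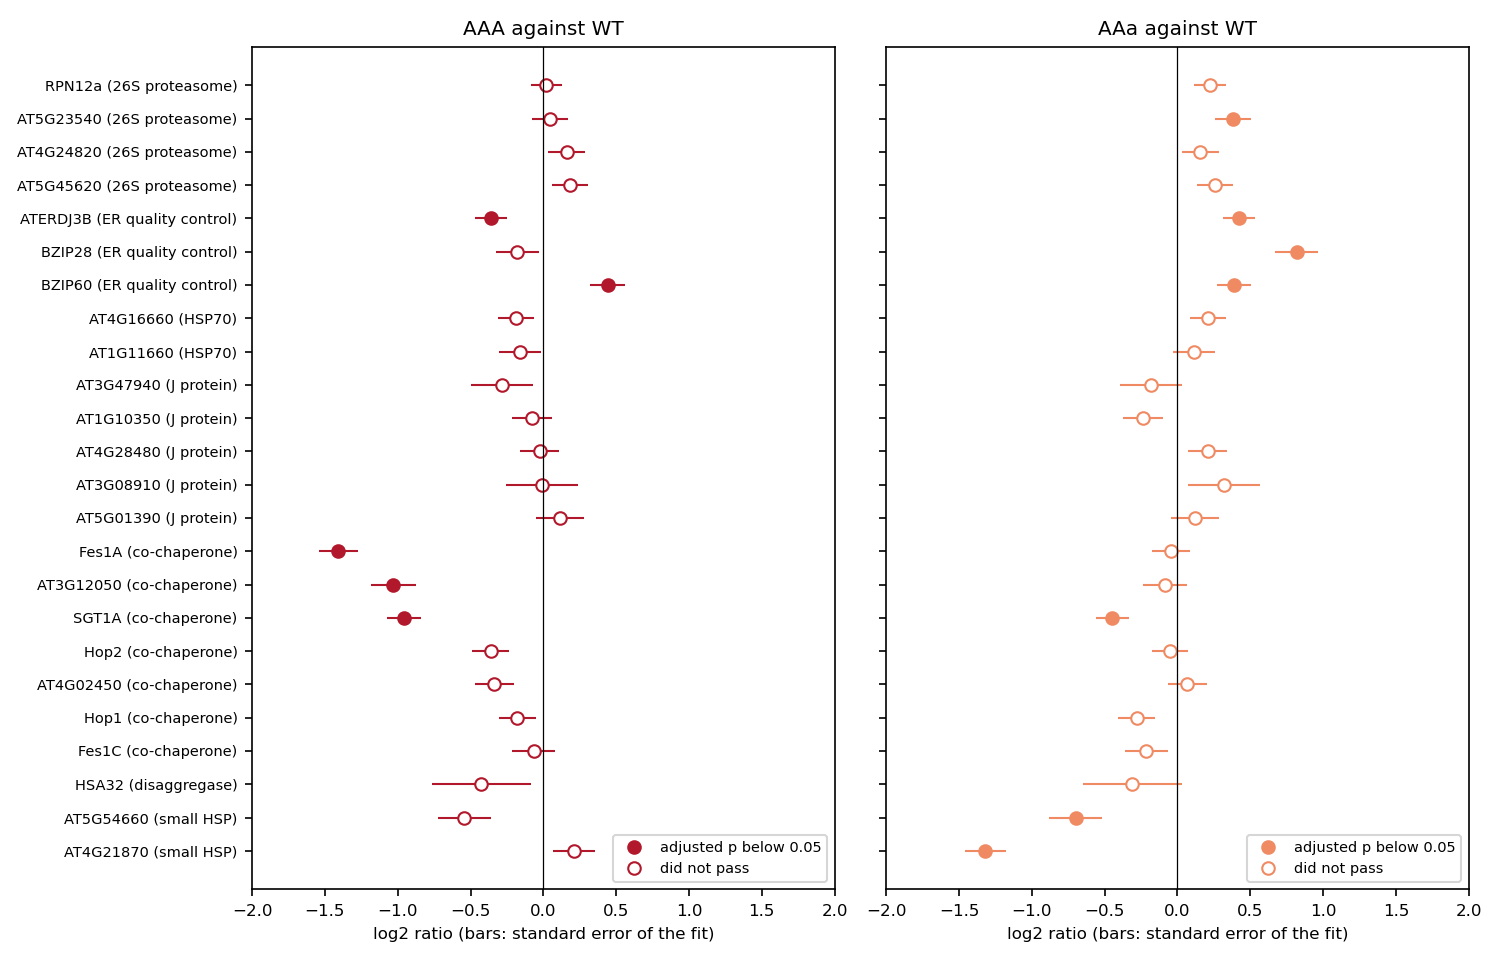
Log2 ratio to WT of the 24 tested list genes other than the members, in AAA (left) and AAa (right), by subgroup; bars are standard errors of the fit and filled points passed an adjusted p below 0.05. Fes1A, AT3G12050 and SGT1A are the lowest points of AAA at -1.41, -1.03 and -0.96, and AT4G21870 is the lowest of AAa at -1.32.

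The pattern of the members over the 6 arrays was also searched for among other genes. The members were standardized and averaged, and this mean correlated with single members between 0.37 for HSC70-2 and 0.98 for AT1G26800. HSC70-3 (0.69) and HSP15.7 (0.85) were the next lowest, and ROF2 reached 0.95. The search covered 1083 expressed single-gene probe sets outside the list with a log2 range of at least 1. Probe sets with several genes or none in the annotation were not searched. The most similar were AT1G13650 (Pearson's r = 0.988), AT5G02540 (0.984), AT3G26510 (0.979), SP1L4 (0.974) and AT1G14200 (0.973). They were followed by AT4G14270 (0.969), SK18 (0.968), AT5G35320 (0.952), AT3G07090 (0.932) and AT1G34380 (0.924). These values rest on 6 arrays in 3 groups and describe the pattern without a test.

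AT1G13650, the gene most similar to the members, gave 1015 and 1002 in AAA and 2074 and 1881 in AAa, against 2679.6 and 2611 in WT. For 9 of the 10 similar genes, as for 6 of the members, both AAa arrays lay between those of AAA and WT. The similar genes were chosen by likeness to the mean of the members, which has this order. Their count is therefore a product of the choice. The exception was AT3G07090, which lies on Chr.3 before AT3G20040 and has 3 copies in AAa. Its signals in AAa, 2399 and 2165, overlapped with 2939 and 2301 in WT, and AAA was lower at 1319.8 and 1138.

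**Figure D4:**
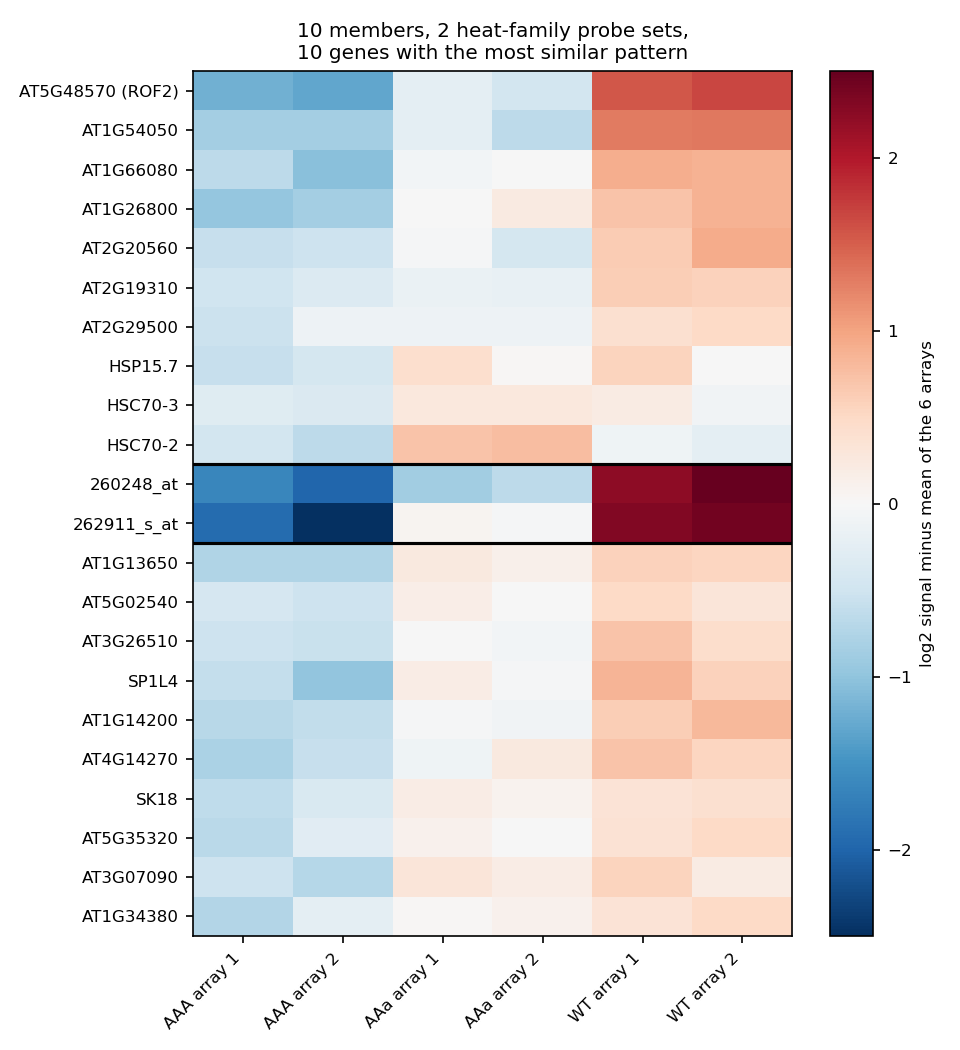
Centred log2 signal minus the mean over the 6 arrays (colour, blue low and red high) of the 10 members, the 2 heat-family probe sets and the 10 genes with the most similar pattern, per array of AAA, AAa and WT. Most rows run blue in AAA, pale in AAa and red in WT; HSC70-2, with r = 0.37 to the mean of the members, is reddest in AAa.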

How the data were processed

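Leaf RNA was measured on 6 arrays, 2 for each karyotype. The deposited values are linear probe set intensity values that the authors obtained with GCOS (version not given in the sources used here), scaled to a trimmed mean of 500. Of 22810 probe sets 13513 have 1 gene in the annotation used, 503 several and 8794 none. Signals below 1 were set to 1 before the log2 transformation, and arrays were then centred by the median of 5476 expressed genes with 2 copies in every karyotype. Probe sets with a mean log2 signal below 6.28 (the 40th percentile, a signal of 77.8) were left out. The fit was limma 3.58.1 in R 4.3.3 (lmFit, eBayes with trend, 3 residual and 12.5 prior degrees of freedom) on all 6 arrays, two-sided, with Benjamini-Hochberg adjustment over 13648 probe sets and a threshold of 0.05. With 2 arrays a group, no exact permutation test can go below p = 0.333. The number of arrays limits the precision. The script was tested on simulated data.

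The members, the gene list and the rule for names were chosen with earlier results of these data known. The rule took all members, both heat-family probe sets, list genes that passed against WT and 16 further regulators and chaperones, of which 3 have a single-gene probe set. It also took the 10 most similar profiles. Regions were set by locus number. Gene names follow the RefSeq table or the locus. Replicate numbers did not pair the arrays. A total of 17 alternatives were tried.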

Additional observations from a re-analysis of the deposited data

Results flagged for a closer look

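Several genes responded unequally to the trisomics. In the limma test of AAa against AAA, which is the difference between their contrasts with WT, Fes1A stood at 1.36 on the log2 scale (adjusted p = 4.2e-06), AT3G12050 at 0.94 (adjusted p = 0.00035), BZIP28 at 1.001 (adjusted p = 0.00018), ATERDJ3B at 0.79 (adjusted p = 0.00011) and SGT1A at 0.51 (adjusted p = 0.00395, and 0.0634 without AAA replicate 1). The small heat shock gene AT4G21870 stood at -1.53 (adjusted p = 3.45e-06). Fes1A, AT3G12050 and BZIP28 have 3 copies in AAa, where the median gene of their region stood at 0.48 relative to AAA. The HSP70 genes HSC70-2 and HSC70-3 had both AAA arrays below and both AAa arrays above WT, with log2 ratios of AAa to AAA of 1.30 and 0.59. HSC70-3 lies in the same region with 3 copies in AAa and exceeded the region median by 0.11, whereas HSC70-2 has 2 copies in each karyotype. For these members the difference was not tested.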

How the results depend on the processing

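The median log2 ratio of the members moved by less than the spread between arrays under all 17 alternatives. Changes to the filter, the intensity trend, the adjustment, the fit or the block could not move it, because it comes from group means. A floor of 16 could not either, because no member signal is that low. With 1 array left out the median ranged between -1.24 and -1.12 in AAA, -0.78 and -0.68 in AAa, and 0.57 and 0.70 for AAa against AAA. Of 612 values of single members and heat-family probe sets 567 moved by less than that spread. These 567 include the values that could not move under the settings just named. No sign turned where the arrays were apart. The counts of other list genes were less stable. With signals as deposited, with centring on all expressed probe sets and with quantile normalization, 7 genes fell and 0 rose in AAA, and 2 rose in AAa. These scalings put the median gene with 2 copies between -0.09 and -0.05 relative to WT, and the share of lower among all calls went to 37.7% in AAA as deposited, against 21.1% in the scaling used. In AAa it was 51.7% with centring on all expressed probe sets, against 34.6%. Without the intensity trend 0 rose in AAA and 1 in AAa. With adjustment over genes with 2 copies only, 20 genes were tested, without Fes1A, AT3G12050 and BZIP28, which have 3 copies in AAa. In that setting 1 fell in AAA, 2 rose in AAa and 2 were higher in AAa than in AAA. When 1 array was left out, 3 to 4 genes fell and 0 to 1 rose in AAA, and 1 to 3 fell and 2 to 4 rose in AAa. AAa against AAA had 4 to 7 higher and 1 lower. Of 495 values of single list genes 39 lost a call, 8 gained one and none turned its sign past the threshold. With the replicate number as a block the counts were the same as without it (4 fell and 1 rose in AAA, 3 fell and 4 rose in AAa, 7 were higher and 1 lower in AAa than in AAA). Deviations of same-numbered arrays correlated between -0.04 and 0.01. A lone array was taken to vary like those of the other karyotypes. Dim signals, such as those of HSP15.7 and 262911_s_at in AAA, limit the size of ratios.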
